A study of Mus musculus with 18 samples.

Results

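The sarcomere, desmin and creatine kinase genes described here are Acta1, Des, Ckm, Tnni2 and Tnnt3 of the mouse. Their isoforms were taken as all rows of the 2 deposited tables with both ends inside a fixed GRCm39 window: 8:124618000-124622000 on the minus strand for Acta1, and, on the plus strand, 1:75336500-75346000 for Des, 7:19144500-19156000 for Ckm, 7:141995000-141999500 for Tnni2 and 7:142052000-142070500 for Tnnt3. An isoform is 1 combination of a 5′ end and a 3′ end. This gave 46 of 7123 isoforms in the polysome table (16 of Acta1, 14 of Des, 6 of Ckm, 5 of Tnni2 and 5 of Tnnt3) and 66 of 6636 in the decay table (15, 13, 11, 9 and 18). Of these, 18 had the same 2 ends in both tables: 7 of Acta1, 3 of Des, 2 of Ckm, 3 of Tnni2 and 3 of Tnnt3.

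TIF-seq2 reads the start and the polyadenylated end of the same RNA molecule. All libraries came from myoblasts of the gastrocnemius muscle of wild-type female mice, grown as primary cultures and driven to fuse into myotubes with 1 µM of the ERK inhibitor SCH772984 over 24 h. For polysome profiling the myotubes received 100 µg/ml cycloheximide for 5 min, and RNA was taken from the ribosome-free part of a sucrose gradient, from the light part (2 to 5 ribosomes) and from the heavy part (6 ribosomes or more), with 2 mice per fraction and 6 libraries. For RNA decay the myotubes received 7.5 µg/ml actinomycin D, which blocks transcription, and were lysed after 0, 3, 6 and 12 h; each of these 4 times had 3 mice, which makes 12 libraries. Each table holds, per isoform, 1 coverage count pooled over all libraries of its assay and 1 value computed by the authors, a translation efficiency (TE) or a half-life. No value belongs to a single mouse, fraction or time, so the variation from mouse to mouse is not known, and no test was run. Intervals given for shares are 95% Wilson intervals and cover counting error only.

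Skeletal muscle contracts when myosin pulls on thin filaments of actin, and the troponin complex on the thin filament makes this depend on calcium. Desmin filaments tie neighbouring myofibrils together, and creatine kinase keeps ATP available beside them. These genes are active in fused muscle cells, and their mRNAs are among the most plentiful there. Acta1 codes for skeletal muscle alpha-actin, the main protein of the thin filament. Tnni2 codes for the inhibitory troponin subunit of fast fibres and Tnnt3 for the subunit of fast troponin that binds tropomyosin. Des codes for the muscle intermediate filament protein, and Ckm for the muscle form of cytosolic creatine kinase.

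Each gene had 1 dominant isoform, the same in both tables. On GRCm39 it ran over 8:124618508-124621490 (minus strand) for Acta1, 7:141995553-141998146 for Tnni2, 7:142052577-142069741 for Tnnt3, 1:75336976-75344357 for Des and 7:19145019-19155508 for Ckm (plus strand). The authors' classes called it an annotated transcript for Acta1, Ckm, Tnni2 and Tnnt3. The Des isoform was classed as having a new polyadenylation site, because its 3′ end lay at -866 nt relative to the annotated one. The last 30 bases before the 3′ end of each are shown because they hold the polyadenylation signal, the hexamer that marks where the RNA is cut, in capitals. They were copied from the deposited 3′ untranslated region (UTR) sequences.

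Acta1: gcATTAAAgccagccattctgttttgctcc
Tnni2: tcgctccAATAAAggattcacatctctttc
Tnnt3: ggggtctaggAATAAAgttatcagactccc
Des: ggacagaaacaatAATAAAgagacaagcac
Ckm: ctgccttaAATAAAagtccgtgatggcctt

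Acta1 carried the variant hexamer ATTAAA, starting 28 nt before the end. The other 4 carried AATAAA, starting 23 nt before the end in Tnni2, 20 nt in Tnnt3, 17 nt in Des and 22 nt in Ckm. Among nuclear isoforms, which leave out mitochondrial RNA, with a TE, a coverage of at least 30 and both UTR sequences, 67.0% of 3510 had AATAAA in the last 40 nt and 81.0% had AATAAA or ATTAAA. In the decay table, 66.4% and 81.5% of 4865 nuclear isoforms with a half-life did.

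For Acta1, Des and Ckm the promoter was in the RefSeq table at hand (build GRCm38.p6, 250 bases before to 50 after each annotated start). Tnni2 and Tnnt3 were not matched there. The bases from 35 to 6 before the dominant 5′ end are shown because a TATA box, in capitals, sits there in 2 of the 3 genes.

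Acta1: actaTATAAaaacctgtgcaaggggacagg
Ckm: cctctaTATAAcccaggggcacaggggctg
Des: gctacaaatagtgcagacagctaaggggct

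TATAA started 31 nt before the dominant 5′ end of Acta1 and 29 nt before that of Ckm. The letters TATAA were not in the Des stretch. On the sense strand, TATAA stood from 40 to 16 nt before the annotated start in 3.52% of 32851 mouse promoters. The dominant 5′ end lay 24 nt downstream of the RefSeq start in Acta1 and 40 nt downstream in Des, and at the RefSeq start itself in Ckm. A CArG box, the site that serum response factor binds, started 97 nt before the Acta1 end, and 1.63% of the promoters held one. CAGCTG, an E-box of the kind bound by myogenic factors such as MyoD and identical on both strands, was found once before each of the 3 ends, at 245 nt in Acta1, 76 nt in Des and 249 nt in Ckm. It occurred in 16.3% of the promoters.

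The 5′ UTR was 72 nt in Acta1, 100 nt in Tnni2, 81 nt in Tnnt3, 86 nt in Des and 67 nt in Ckm. The median was 102.5 nt over the 3510 nuclear isoforms of the polysome table and 94 nt over the 4865 of the decay table. Tnni2 thus lay near the middle, and the other 4 were below both medians. The 3′ UTR was 240 nt in Acta1, 99 nt in Tnni2, 174 nt in Tnnt3, 663 nt in Des and 197 nt in Ckm, beside a median of 303.5 nt. Only Des was above that median. The Ckm 3′ UTR was 64.5% G and C, at the 99.4th percentile of the nuclear isoforms, and that of Des was 59.6%, at the 93.9th. None of the 5 leaders held an ATG upstream of the start codon, which 39.9% of nuclear isoforms in the polysome table did. None of the 5 3′ UTRs held ATTTA, the core of AU-rich decay elements, which 26.6% did. Nor did they hold a site complementary to bases 2 to 8 of the muscle microRNAs miR-1 and miR-206 (ACATTCC, in 3.30% of nuclear isoforms), of miR-133 (GGACCAA, 3.82%) or of let-7 (CTACCTC, 4.47%). All 5 had an A at position -3 of the start codon, and a purine stood there in 84.2% of nuclear isoforms. RNA began with A in 4 of the 5 and with G in Ckm; 61.6% of nuclear isoforms began with A.

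Coverage counts joined pairs of ends rather than fragments along the RNA, so it was compared between genes without division by length. In the polysome table Des was highest, with a coverage of 66101, or 4.13% of the nuclear coverage of 1600529 (interval 4.10 to 4.16%). Acta1 followed with 32759, or 2.05% (2.02 to 2.07%). The troponins and creatine kinase were far lower: Tnni2 had 2415 (0.151%, 0.145 to 0.157%), Tnnt3 1648 (0.103%, 0.0981 to 0.108%) and Ckm 821 (0.0513%, 0.0479 to 0.0549%). By the coverage of 1 isoform, the dominant ones of Des and Acta1 ranked 1 and 2 of the 7095 nuclear isoforms, and those of Tnni2, Tnnt3 and Ckm ranked 151, 213 and 476.

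In the decay table the order was Des with 57657, or 1.85% of 3117987 (interval 1.83 to 1.86%), Acta1 with 50614 (1.62%, 1.61 to 1.64%), Tnni2 with 15584 (0.500%, 0.492 to 0.508%), Tnnt3 with 8144 (0.261%, 0.256 to 0.267%) and Ckm with 8005 (0.257%, 0.251 to 0.262%). The intervals of Tnnt3 and Ckm overlapped there, and no other neighbours in either order did. The dominant isoforms ranked 3 for Des, 4 for Acta1, 31 for Tnni2, 70 for Ckm and 71 for Tnnt3 of 6593 nuclear isoforms.

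**Figure D1:**
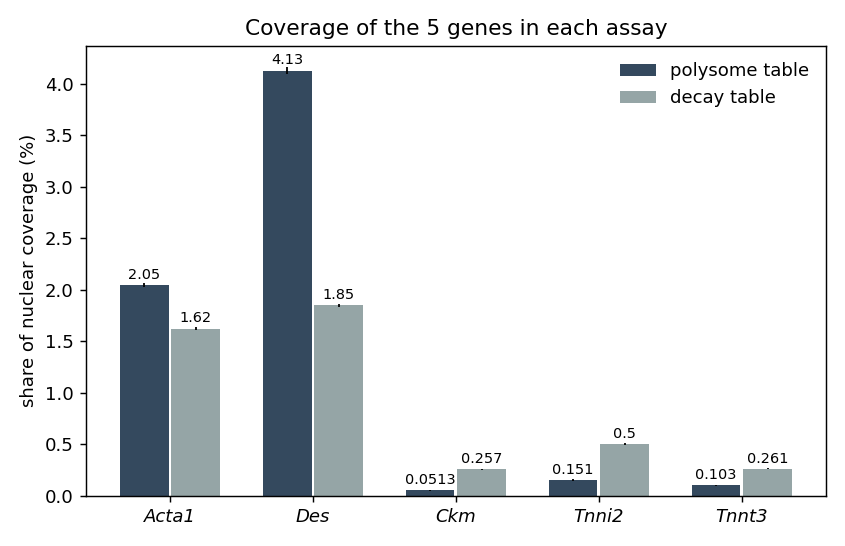
Share of the nuclear coverage (%, vertical axis) held by each gene in the polysome table (dark bars, 6 libraries pooled) and in the decay table (light bars, 12 libraries pooled); error bars are 95% Wilson intervals for counting error. Des falls from 4.13 to 1.85% between the tables, whereas Ckm goes from 0.0513 to 0.257%, Tnni2 from 0.151 to 0.500% and Tnnt3 from 0.103 to 0.261%.

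The 5 genes thus took different shares in the 2 assays. Relative to the nuclear coverage of each table and scaled to 1000000, Ckm was 5.01 times as high in the decay table as in the polysome table (2567 against 513), Tnni2 3.31 times (4998 against 1509) and Tnnt3 2.54 times (2612 against 1030). Acta1 was at 0.793 times and Des at 0.448 times. Among the 2453 nuclear isoforms listed in both tables, the median of this ratio was -0.03 on the log2 scale. The dominant Ckm isoform lay at the 94.2nd percentile of these ratios, Tnni2 at the 86.4th, Tnnt3 at the 81.2nd, Acta1 at the 38.5th and Des at the 19.9th. The assays used different cultures, extraction and numbers of mice, which cannot be told apart from the assay here. The decay coverage also pools all times of actinomycin D treatment, most of them after transcription was blocked, and the polysome coverage pools gradient fractions. The ratios are therefore not differences in RNA level between untreated cultures. How far loss of RNA under actinomycin D shaped them was not tested. In such bulk samples, fewer cells of a type and less RNA per cell cannot be told apart either.

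The 5′ ends were more varied than the 3′ ends. Ends within 10 nt of each other were counted as 1. The dominant 5′ end held 86.5% of the Acta1 coverage in the polysome table (interval 86.1 to 86.8%) and 83.8% in the decay table (83.5 to 84.1%). In Tnni2 it held 79.1% (77.5 to 80.7%) and 71.3% (70.6 to 72.0%), and in Tnnt3 96.4% (95.3 to 97.2%) and 87.5% (86.8 to 88.2%). In Des it held 76.1% (75.8 to 76.5%) and 75.4% (75.0 to 75.7%), and in Ckm 82.3% (79.6 to 84.8%) and 87.3% (86.5 to 88.0%). The intervals of the 2 tables overlapped in no gene. The lowest coverage listed was 11 in the polysome table and 21 in the decay table, so a rare end had to pass a different minimum in each.

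Most of the other 5′ ends lay downstream, inside the gene. They held 13.4 and 16.1% of the Acta1 coverage in the polysome and the decay table, 23.8 and 24.4% of that of Des, 5.36 and 12.1% of that of Ckm, 20.2 and 28.7% of that of Tnni2, and 3.64 and 12.5% of that of Tnnt3. Ends upstream of the dominant one held at most 0.663% in each gene and table, except for 12.3% of Ckm in the polysome table (101 of 821; interval 10.2 to 14.7%). Of this Ckm coverage, 57 was at 19144989, at -1 nt from the authors' annotated start. The dominant Ckm end lay at -31 nt from that start, where negative means downstream. In Acta1 and Des the internal ends were spread along the gene, and none held more than 7.43%, the share of the Des end at 75343886 in the polysome table. Some internal ends were not at the same place in both assays. Of the polysome 5′ ends, 8 of 15 in Acta1, 6 of 11 in Des, 4 of 6 in Ckm, 3 of 5 in Tnni2 and 3 of 3 in Tnnt3 had a decay end within 10 nt. Within 25 nt it was 11 of 15 in Acta1 and 8 of 11 in Des, with no change in the other 3 genes. The largest internal end of Des was at 75343886 in the polysome table, with a coverage of 4911, and at 75337597 in the decay table, with 2713. Neither had a counterpart within 50 nt listed in the other table.

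**Figure D2:**
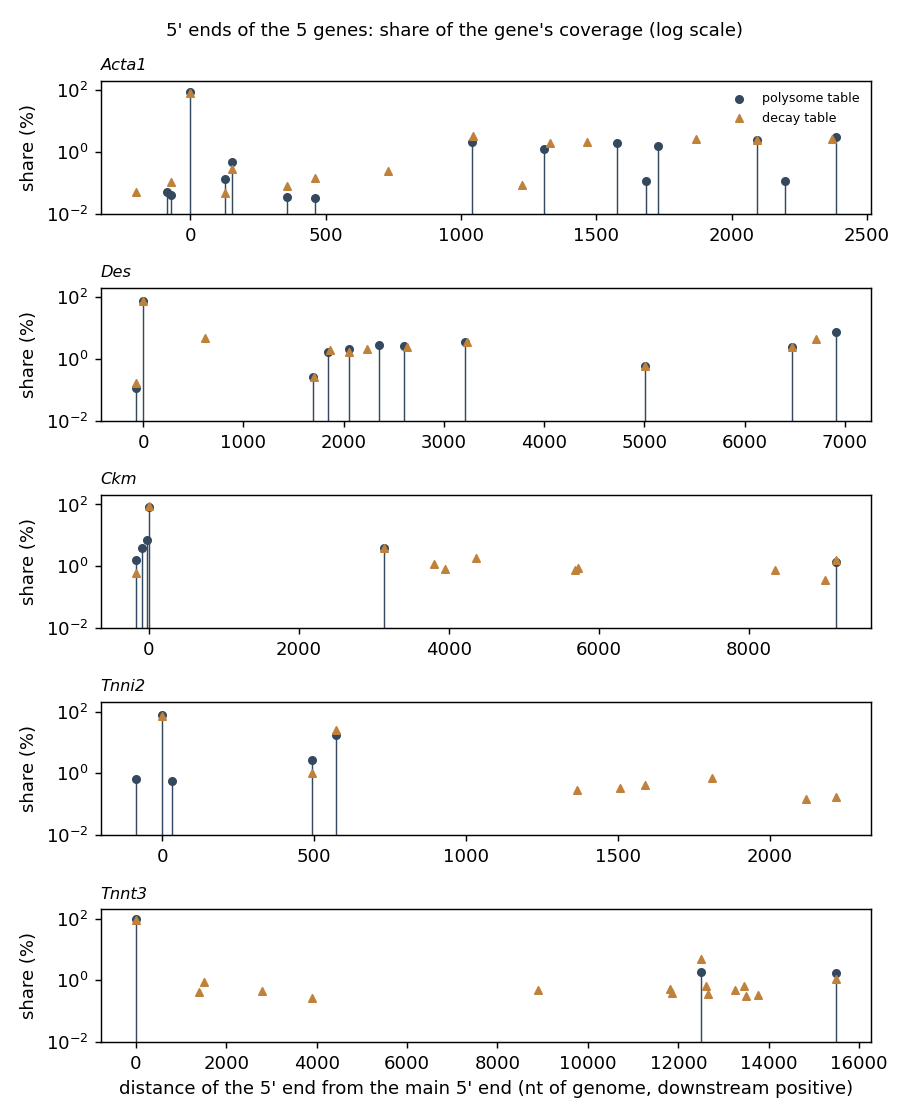
Share of each gene's coverage (%, log scale) at every 5′ end, by its distance in nt of genome from the dominant 5′ end, for the polysome table (circles with stems) and the decay table (triangles). In each of the 5 panels the point at 0 holds at least 71.3%, and in Tnni2 a second end 572 nt downstream holds 17.0% and 25.6%.

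Tnni2 was the gene with a second major start. The end at 141996125, 572 nt downstream of the dominant one, held 17.0% of the polysome coverage (411 of 2415; interval 15.6 to 18.6%) and 25.6% of the decay coverage (3983 of 15584; 24.9 to 26.2%). A further start at 141996045, 492 nt downstream, held 2.61% (2.04 to 3.32%) and 1.07% (0.916 to 1.24%). The authors classed all 3 as annotated. All 3 leaders ended in the same bases. The downstream leaders, 103 and 183 nt long, lead to 1 point in the genome, at 141996228, if both read on without a gap. The same match would arise if both skipped the same intron, so it does not show unspliced leaders. If all 3 use the same start codon, the 100 nt of the dominant leader were spread over at least 675 nt of genome, so it skipped an intron. Exon borders were not at hand, so whether the other 2 start inside that intron is not known. The dominant leader had no upstream ATG, that of the second start had 1 and that of the further start had 2.

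At the 3′ end the choice was nearly uniform. All listed molecules of Ckm and Tnni2 ended at 1 site in both tables, as did those of Acta1 in the decay table. In the polysome data, 99.9% of Acta1 (32730 of 32759) and 99.8% of Des (65950 of 66101) ended at the dominant site, and in the decay data 99.95% of Des did. Tnnt3 ended there in 96.2% (95.2 to 97.1%) and 97.9% (97.6 to 98.2%). A site inside the Tnnt3 gene, at 142065060, took 3.09% in the polysome table (51 of 1648) and 1.71% in the decay table (139 of 8144). The minor sites of Acta1 at 124618548 and of Des at 75344213, 75344211 and 75344783 had neither AATAAA nor ATTAAA in their last 30 nt. Where a longer 3′ UTR showed the next 20 nt, these held 10 A after the Acta1 site and 7 A after each of the first pair of Des sites, against 5 A after the dominant Des site. The Des ends at 75344213 and 75344211 were joined only to 5′ ends inside the gene.

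Some ends inside the genes met each other. A Des 3′ end at 75343442 (coverage 14) stood 3 nt before a 5′ end at 75343445 (coverage 1647) in the polysome table. In Tnnt3 the 3′ end at 142065060 stood 24 nt before the 5′ end at 142065084 in the polysome table (coverage 51 and 31) and 28 nt before that at 142065088 in the decay table (139 and 417). Of all nuclear 3′ ends, 11 of 3841 in the polysome table (0.286%) and 8 of 4274 in the decay table (0.187%) had a 5′ end within 30 nt downstream. How such pairs of ends arise was not tested.

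TE, the authors' measure of how strongly an mRNA is carried by ribosomes, put the fast troponins high and desmin low. No source used here gives its formula or says whether it was divided by a transcript length. The reference was the 3517 nuclear isoforms that had a TE above 0 at a coverage of 30 or more, with a median of 0.000742 and quartiles of 0.000510 and 0.00108. The dominant Tnni2 isoform had a TE of 0.00183 (96.0th percentile), 2.46 times the median. Tnnt3 had 0.00121 (81.2nd percentile), or 1.64 times the median. Ckm lay at the middle with 0.000720 (48.0th percentile). Acta1 had 0.000633 (38.8th percentile) and Des 0.000403 (13.98th percentile), or 0.543 times the median. Against nuclear isoforms within 1.5-fold of the same summed UTR length, the percentiles were 91.0 for Tnni2, 71.1 for Tnnt3, 31.9 for Ckm, 26.4 for Acta1 and 15.3 for Des, so the order of the 5 genes was the same.

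As a scale for noise, 16 pairs of nuclear isoforms with the same 3′ end and 5′ ends under 20 nt apart had TE values that differed with an SD of 0.29 on the log2 scale, or 1.22-fold. The less covered isoform of these pairs had a coverage of at most 149, so the scale is one of thinly covered isoforms in pooled libraries and holds no variation between mice. Ckm and Acta1, which are neighbours in this order, were closer than that. The other neighbours, Tnni2 and Tnnt3, Tnnt3 and Ckm, and Acta1 and Des, were further apart than 1.22-fold. Averaged over the isoforms with a coverage of at least 30, weighted by coverage, TE was 0.00167 for Tnni2, 0.00123 for Tnnt3, 0.000714 for Ckm, 0.000625 for Acta1 and 0.000394 for Des. With the median over these isoforms in place of the weighted mean, the order of the troponins turned, with 0.00110 for Tnni2 (3 isoforms) and 0.00171 for Tnnt3 (2 isoforms). All 11 such isoforms of Acta1 and all 11 of Des lay below the nuclear median, 2 of 4 of Ckm lay above it, and so did all 3 of Tnni2 and both of Tnnt3.

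**Figure D3:**
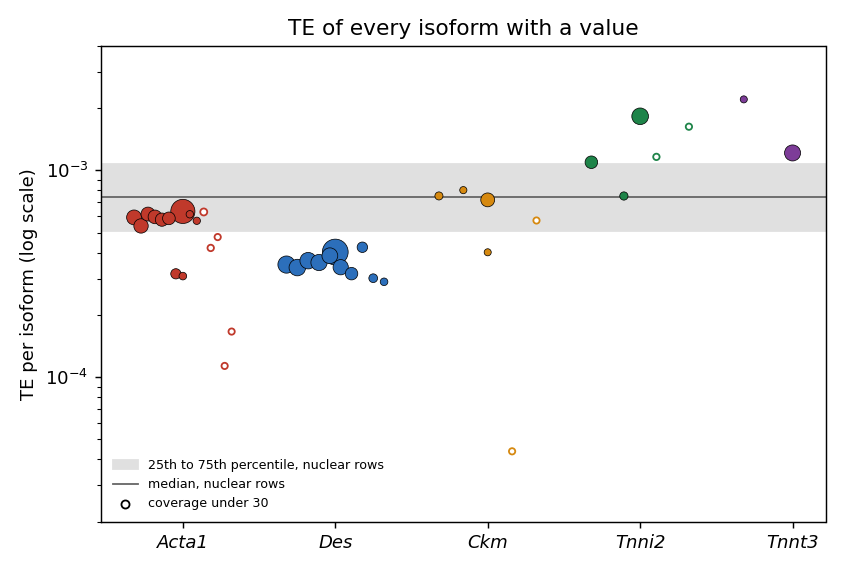
TE (no unit, log scale) of each isoform of the 5 genes; the dominant isoform stands at the gene's tick and the others are spread sideways only for visibility, with larger points for higher coverage and open points for a coverage under 30. The grey band runs from the 25th to the 75th percentile of nuclear isoforms (0.000510 to 0.00108): Des lies below it, and the dominant isoforms of Tnni2 and Tnnt3 lie above it.

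Within Acta1, isoforms fell into a main group and a low pair. The 9 isoforms with a coverage of at least 30 that began at the dominant end or in the later part of the gene had a TE from 0.000539 to 0.000633. The pair that began at 124621335 (coverage 159) and 124621360 (coverage 45), 155 and 130 nt downstream of the dominant end, had 0.000316 and 0.000308. This was 1.00 and 1.04 lower on the log2 scale than the dominant isoform, beyond the spread of 0.29. Their deposited leaders were 899 and 924 nt, each with 10 upstream ATGs, and led without a gap to the start codon, whereas the dominant leader of 72 nt skipped an intron. The isoforms at 124621132 and 124621028, with the same unspliced form of leader (696 and 592 nt) and a coverage of 12 and 11, had 0.000113 and 0.000166. All 4 unspliced-leader isoforms of the polysome table that began inside this intron were thus below every other isoform of the gene. Their half-lives were 12.99 (124621335, coverage 149), 9.74 (124621360, coverage 24), 15.7 (124621132, coverage 40) and 12.7 (124621028, coverage 75), on both sides of the 12.5 of the dominant isoform.

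In Tnni2, TE was 0.00183 with the dominant leader, 0.00110 with the leader of the second start and 0.000752 with that of the further one. The second was 0.74 and the further one 1.28 lower on the log2 scale than the dominant isoform. The isoform that began upstream, at 141995465, had 0.00116 at a coverage of 16, above both downstream starts, with 2 upstream ATGs in a deposited leader that repeats 80 of its own bases. The first 3 shared the 3′ end at 141998146 and a 3′ UTR of 99 nt, so these isoforms were not known to differ other than in their leaders; splicing within the coding sequence is not listed. In Ckm the isoform that began 30 nt upstream, at 19144989, had a TE of 0.000753 (coverage 57), and the one that began 97 nt upstream, at 19144922, had 0.000402 (coverage 31), 0.84 lower on the log2 scale than the dominant one. The Ckm isoform at 19144843, listed in both tables, had the lowest TE of all member isoforms, 4.38e-05, at a coverage of 13. The deposited leaders of these last 2 Ckm isoforms repeat 28 and 107 of their own bases. Whether TE carries that repeat was not tested. The highest TE of Ckm at a coverage of at least 30 was 0.000803, at 19148148 inside the gene (coverage 33), above the dominant one. In Tnnt3 the isoform that began at 142065084, inside the gene, had 0.00221 at a coverage of 31, above the dominant one.

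Des varied little. Its 11 isoforms with a TE and a coverage of at least 30 ran from 0.000289 to 0.000425, with the dominant one at 0.000403. The highest began at 75338674 (coverage 174), inside the gene, and its deposited leader of 343 nt held 9 ATGs. The lowest was the only long-3′ form, which shared the dominant 5′ end and reached 426 nt further, to 75344783 (coverage 44). Its TE was 0.48 lower on the log2 scale than that of the dominant isoform. Over the series, the isoform with the later 3′ end had the lower TE in 83.8% of 241 nuclear pairs that shared the 5′ end, with a median of -0.39. The upstream start of Des at 75336901 had 0.000301 (coverage 80), 0.42 lower than the dominant one.

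Setting each isoform of at least 30 against the dominant one of its gene with the same 3′ end gave 25 pairs that differed at the 5′ end. The isoform with the earlier 5′ end had the lower TE in 5 of the 25, beside 55.9% of 1062 nuclear pairs. By gene it was 0 of 10 in Acta1, 2 of 9 in Des, 2 of 3 in Ckm, 0 of 2 in Tnni2 and 1 of 1 in Tnnt3. The median difference over the 25 pairs was 0.13 on the log2 scale, within the spread of 0.29. The pairs of a gene share its dominant isoform and are not independent.

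In several isoforms that began upstream of the annotated start, the deposited 5′ UTR repeated its own first bases. In Ckm at 19144922 the first 28 nt of the 197 nt leader occurred again, and without them it was 169 nt; at 19144843 the repeat was 107 of 355 nt. In Acta1 at 124621559 the repeat was 70 of 210 nt, and in Tnni2 at 141995465 it was 80 of 243 nt. The leaders of Des at 75336901 and of Tnni2 at 141996045 had no repeat. Nor had the 933 nt leader of Tnnt3 at 142054086, 1268 nt upstream of the annotated end. Whether these leaders skip an intron was not tested. Over the series, the first 20 nt recurred in 40.4% of the 772 leaders that began at least 20 nt upstream of the annotated end in the polysome table, and in 0.322% of the 4348 others. For isoforms that began inside the gene, the deposited leader often ended at another point than the start codon of the dominant isoform: among those with a leader of at least 10 nt in the polysome table, its last 10 nt were the dominant ones in 5 of 11 Acta1 and 0 of 7 Des isoforms. All 832 nuclear isoforms without a TE lacked a UTR sequence, among them 3 of Des and 3 of Tnnt3.

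Half-lives of the dominant isoforms ran from 12.4 to 14.3, or 1.14 to 1.32 times the nuclear median. The reference was 5247 nuclear isoforms that had a half-life above 0 at a coverage of 30 or more, with a median of 10.8 and quartiles of 8.93 and 13.1. No unit is stated for these values; the sampling times were in hours. Tnni2 had 14.3 (82.4th percentile), Tnnt3 14.2 (82.2nd), Ckm 12.8 (72.3rd), Acta1 12.5 (69.1st) and Des 12.4 (68.1st). Nuclear isoforms of the same 3′ end with 5′ ends under 20 nt apart differed with an SD of 0.64 on the log2 scale, or 1.55-fold, over 16 pairs whose less covered isoform had a coverage of at most 155. The differences between the 5 genes, and those from the nuclear median, were smaller than this spread of thinly covered isoforms, which does not show that the genes are alike. Weighted by coverage over all isoforms of at least 30, the half-life was 15.05 for Tnni2, 14.2 for Tnnt3, 13.0 for Des, 12.8 for Ckm and 12.7 for Acta1. Of these isoforms, 11 of 13 of Acta1, all 12 of Des, 7 of 10 of Ckm, all 7 of Tnni2 and 8 of 13 of Tnnt3 lay above the nuclear median.

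**Figure D4:**
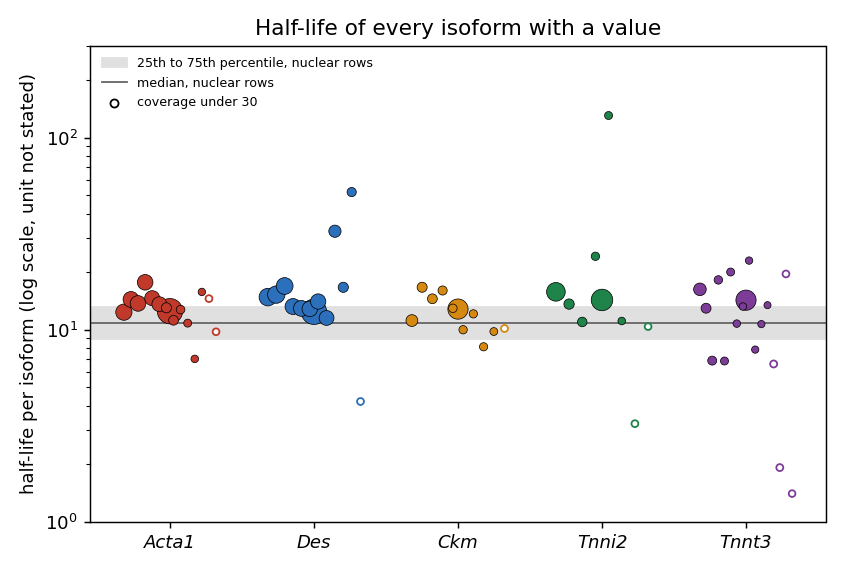
Half-life (unit not stated, log scale) of each isoform of the 5 genes; the dominant isoform stands at the gene's tick and the others are spread sideways only for visibility, with larger points for higher coverage and open points for a coverage under 30. The dominant isoforms lie between 12.4 and 14.3, above the nuclear median of 10.8, and the widest values belong to isoforms of low coverage such as the Tnni2 point at 130.3.

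The half-lives farthest from those of the dominant isoforms came from isoforms with a coverage of at most 357. In Des the upstream start at 75336901 had 52.0 (coverage 101) and the internal end at 75341983 had 32.5 (coverage 357), whereas the 9 other isoforms with a coverage of at least 154 besides the dominant one had 11.5 to 16.9. In Acta1 the range was 7.04 (124620264, coverage 43) to 17.6 (124619398, coverage 1290). In Ckm it was 8.14 (19153369, coverage 62) to 16.6 (19149376, coverage 146). Tnni2 ran from 10.96 (141997364, coverage 114) to 130.3 (141997059, coverage 54), and its second and further starts had 15.7 and 13.6. Tnnt3 ran from 6.86 (142065198, coverage 55) to 22.9 (142061474, coverage 39). Its isoform that began at 142068058, listed in both tables but without a TE, had 6.89 (coverage 90). The dominant Tnnt3 isoform and the one that ended early at 142065060 had 14.2 and 12.9.

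Of the 49 member pairs that differed at the 5′ end, the isoform with the earlier end had the lower half-life in 30, beside 50.4% of 1571 nuclear pairs. By gene it was 9 of 12 in Acta1, 9 of 11 in Des, 5 of 9 in Ckm, 3 of 6 in Tnni2 and 4 of 11 in Tnnt3. The median difference over the 49 pairs was -0.09 on the log2 scale, within the spread of 0.64. The only member pair that differed at the 3′ end was that of Tnnt3, whose longer isoform was 0.14 higher on the log2 scale. Over the series, the isoform with the later 3′ end had the lower half-life in 60.5% of 527 nuclear pairs.

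The tables carry no gene names. Isoforms of other genes were named only where the first 25 nt of the leader occurred in the RefSeq promoter of 1 gene. By that match, 4 Acta1, 1 Des and 4 Ckm isoforms of the polysome table fell on their own gene, and no member isoform fell on another. Of 42 other sarcomere, cytoskeletal and energy genes of muscle, 22 could be named with a TE and 23 with a half-life. Their median TE was 0.000593, with 10 of 22 above the nuclear median, and their median half-life was 10.96, with 12 of 23 above it. The 8 of highest polysome coverage were Tnni1, the slow inhibitory troponin (TE 0.00104), Mybph, a myosin-binding protein (0.000448), Tpm1, a tropomyosin (0.000926), Tnnt1, the slow tropomyosin-binding troponin (0.00132), Tnnc2, the fast calcium-binding troponin (0.00175), Tnnc1, the slow and cardiac one (0.00182), Csrp3, a LIM protein of the Z-disc (0.00118), and Actn2, the Z-disc crosslinker alpha-actinin (0.000354). Both high and low TE thus occurred among sarcomere genes. Tnni2 was the highest of the 5 members and of these 8, with Tnnc1 and Tnnc2 within 1.22-fold of it.

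All 9 markers of muscle fibres on the list used, which holds the 5 genes themselves, had isoforms in the polysome table and 8 of 9 in the decay table. The 5 genes were counted by their windows, whereas every other marker needed a match to its promoter. In the polysome table that match alone found a coverage of 80 of 66101 for Des, 28357 of 32759 for Acta1 and 777 of 821 for Ckm. The counts for muscle fibres and for other cell types thus rest in part on unlike methods. No isoform could be named for any of 3 myoblast (Pax7, Myf5, Myod1), 6 fibroblast, 3 endothelial or 4 macrophage markers in either table, although 2, 3, 1 and 2 of them were in the promoter table. Of 3 smooth muscle markers only Acta2 had isoforms, with a coverage of 856 and 4112. Their part in the levels above was not tested.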

How the data were processed

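Per the submitters' processing notes, the tools were STAR 2.5.3a, UMI-tools 0.5.4, cutadapt 1.16 and bcl2fastq 2.20.0, and the build was GRCm39. The clustering of ends, the use of molecular identifiers and the formulas of TE and half-life are described in no source used here. In each of the 2 tables the authors deposited a whole-number coverage count for every isoform, its UTR sequences and its TE or half-life, whose other units are not stated. There were 0 columns for single libraries, which leaves each library's depth unknown. The summed nuclear coverage was 1600529 and 3117987. Isoforms were chosen by the windows given above with Python 3.11.15 and pandas 2.3.3. Values were set against nuclear isoforms covered at least 30 times. Pairs shared 1 end, with 3′ ends at least 100 nt or 5′ ends at least 20 nt apart. The pair, percentile and end-joining steps were tested on simulated data. Fisher's exact test of 5′ by 3′ ends was not run, since the 4 combinations it needs were never all listed. Isoforms named in the text were the most covered per table, those in both tables, those at the lowest and highest values with a coverage of at least 30, and others where a comparison of ends or leaders concerned them, which were chosen after their values were seen; other muscle genes were named by coverage. The members and lists were chosen with earlier results of these data known. Alternatives were other coverage minimums, end distances, averages and reference sets.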

Additional observations from a re-analysis of the deposited data

Results flagged for a closer look

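Some coverage was joined from an end inside a window to an end outside it and was in none of the values above. It came to 148 for Acta1 in the polysome table (6 isoforms) and 353 in the decay table (5 isoforms), and to 728 for Des in the polysome table (9 isoforms) and 142 in the decay table (3 isoforms). Each exceeds the 3 counts that a count of 0 allows. That was fixed in advance, since no isoform is listed under a coverage of 11 (polysome) or 21 (decay). These isoforms spanned from 3990 to 1971303 nt of genome for Acta1 in both tables and up to 1541306 nt for Des. The other 3 genes had none listed. Whether these joins come from RNA molecules of the cells was not tested.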

How the results depend on the processing

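For shares at the most used end (20 results), taking ends as deposited or joining them within 25 nt changed nothing in all 40 alternatives, because no other end lay within 25 nt of a dominant one; this says nothing about their stability. The other 24 results were the coverage-weighted mean of TE and of half-life, its percentile and the percent of pairs in 1 direction. Of their 75 alternatives, 72 stayed within the tolerance, which was the spread of near-identical, thinly covered isoforms for means and percentiles and the Wilson interval for pairs. This count says little about stability. The half-life tolerance of 1.55-fold was wider than the distance of any of the 5 genes from the nuclear median. Each 3′ comparison rested on 1 member pair in the main setting, and some alternatives used the same isoforms as that setting. The median over isoforms in place of the weighted mean gave a TE of 0.00110 for Tnni2 and 0.00171 for Tnnt3, which turned the order of these 2 genes. Nuclear isoforms of like UTR length put the mean TE of Ckm at the 31.1st percentile in place of the 47.1st. No paired analysis was possible because the tables hold no column for a single library, and leaving out a replicate could not be run for the same reason. Isoforms under a count of 11 (polysome) or 21 (decay) are not listed, so rare ends could not be seen.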

Other observations

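The other troponin genes that could be named also lay above the nuclear medians. This set was put together after the values were seen and has no test. Counting Tnni2 and Tnnt3, the dominant isoforms of 7 of 7 troponin genes were above the median TE of 0.000742, from 0.000945 for Tnnt2, the cardiac tropomyosin-binding form (coverage 114), to 0.00183 for Tnni2. Against nuclear isoforms of like UTR length they were above the 50th percentile in 7 of 7, from 62.7 for Tnnt2 to 91.1 for Tnnc1. Their half-lives were above the median of 10.8 in 7 of 7 as well, from 12.0 for Tnni1 to 14.4 for Tnnt1. All 7 were within 1.55-fold of that median, the spread of near-identical, thinly covered isoforms. Acta1 and Des, the most covered of the 5 genes described here, were below the median TE, as were Mybph (0.000448) and Actn2 (0.000354), whereas Tpm1 was above it (0.000926).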
